A study of Mus musculus with 8 samples.

Results

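Matrix metalloproteinases (MMPs) and their tissue inhibitors (TIMPs) were examined in mouse blood eosinophils cultured for 18 h with different cytokines. The genes Mmp8, Mmp9, Mmp12, Mmp14, Mmp25, Mmp27, Timp1 and Timp2 were chosen by symbol, and each Ensembl ID was looked up in the deposited count table. All 8 were found among the 15917 genes of the table, as 6 MMPs and 2 TIMPs. E1 cells received 15 ng/mL of IFN-gamma and of TNF-alpha, and CN cells received no cytokine in the same experiment. In a second experiment, E2 cells received IL-4, IL-5 and GM-CSF, each at 10 ng/mL, plus IL-33 at 30 ng/mL, and E0 cells received 10 ng/mL IL-5 alone. Each group had 2 libraries. The cells came from C57BL/6 mice. The culture protocol names IL-5 transgenic blood donors (NJ.1638) while the genotype label of every sample reads WT, and neither gives the promoter of the transgene. The labels do not say whether duplicate libraries stem from different animals or cultures. The sex-linked transcripts given below show that the duplicates of every group came from donors of different sex. The p-values measure the spread between these libraries, which includes that difference.

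MMPs are zinc-dependent proteases that cut collagens, elastin and other proteins of the extracellular matrix, as well as cytokines and surface receptors. They are made as inactive precursors, are opened by other proteases such as plasmin or furin, and are blocked by TIMPs, which bind the active site. Eosinophils are best known in this field for Mmp9, a gelatinase used in crossing basement membranes. The comparisons address how these genes differ after 18 h between eosinophils given IFN-gamma with TNF-alpha and unstimulated ones, and between eosinophils given the IL-4, GM-CSF and IL-33 mixture and those kept in IL-5.

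Library totals ran from 60809057 to 95065752 counts, and 3 counts in a library corresponded to between 0.0316 and 0.0493 CPM, the counts scaled to the library total. CPM values below are further scaled by TMM and carry counting error as well as replicate spread. Fold changes are from a quasi-likelihood fit (edgeR) over all 8 libraries and 15913 genes, and a gene is said to rise or fall where its Benjamini-Hochberg adjusted p over all these genes was below 0.05. The Y-linked gene Ddx3y had 5125 to 8149 counts in replicate 1 and 0 in replicate 2 of the 4 groups, and Xist had 5 to 12 counts in replicate 1 and 59746 to 88819 in replicate 2, so the spread within a group includes a difference of sex. Of 12 eosinophil markers all were in the table, and they summed to between 5987 and 6915 CPM in E1, 7651 and 7955 in CN, 4566 and 4624 in E2, and 6987 and 7073 in E0. The 17 neutrophil markers in the table summed to 1419 and 1919 CPM in E1, 2715 and 3101 in CN, 1163 and 1692 in E2, and 2782 and 3486 in E0. The isolation removed cells carrying CD90 or B220, not neutrophils or monocytes, and in bulk RNA fewer cells of a type and less RNA per cell cannot be told apart.

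Per transcript length, Mmp25 was the most abundant of the 8 genes in all 4 groups. In RPKM (CPM per kilobase of exon, the scale on which genes are compared here), it averaged 194 ± 13.4 in E1, 261 ± 23.4 in CN, 258 ± 3.01 in E2 and 218 ± 5.10 in E0 (SD, n = 2 each). Mmp9 came next, at mean RPKM of 94.0 in E1, 130 in CN, 56.4 in E2 and 110 in E0. The lowest mean RPKM was that of Mmp12 in E1 (0.00872) and CN (0.0174), of Mmp14 in E2 (0.646) and of Timp1 in E0 (0.187). By CPM, Mmp25 stood at rank 110 among all genes in E1, 57 in CN, 58 in E2 and 75 in E0.

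**Figure D1:**
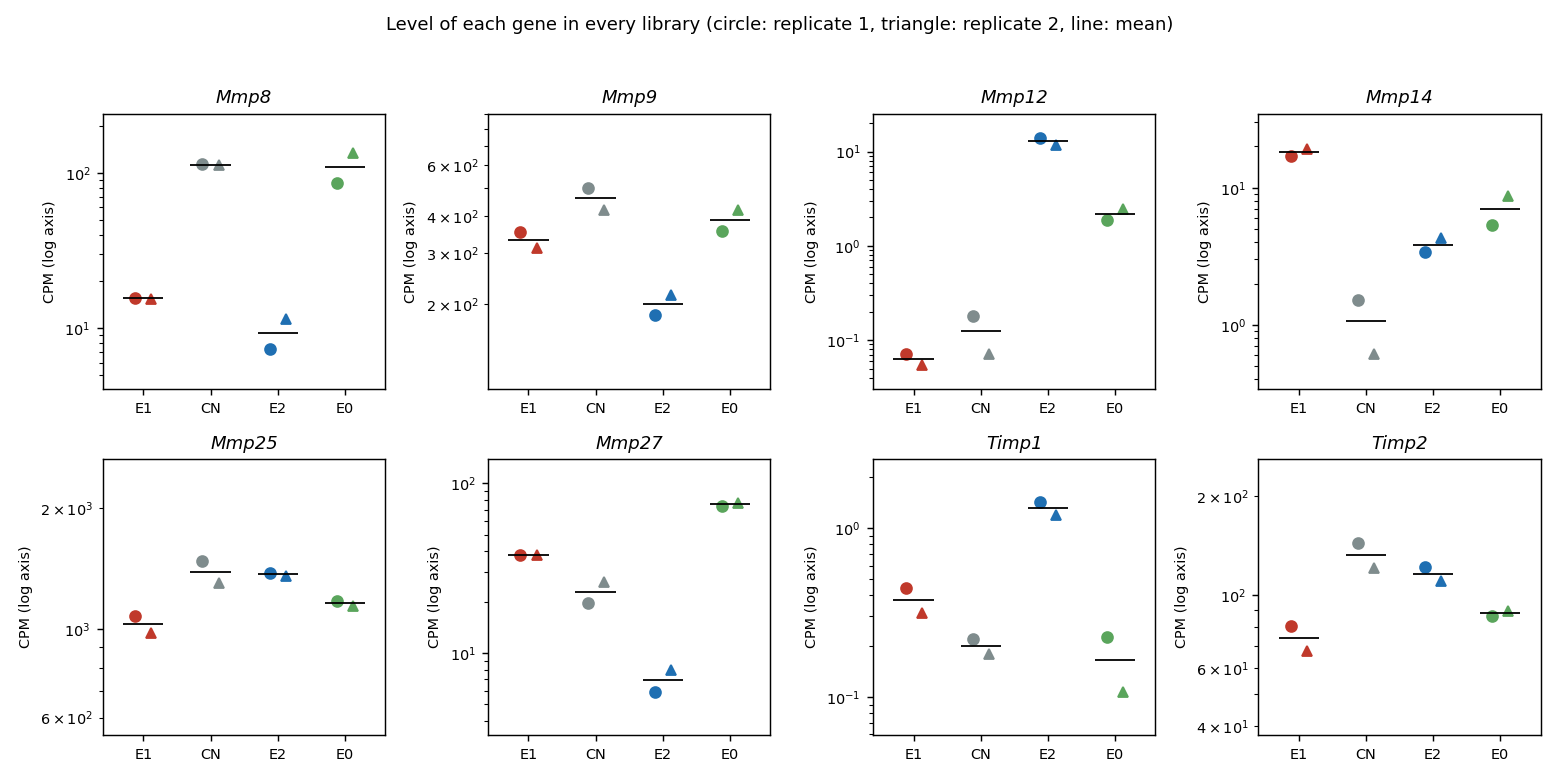
CPM of the 8 genes in each library on log axes, with E1 and CN from the first experiment and E2 and E0 from the second. Circles are replicate 1, triangles replicate 2 and lines the group mean of 2 libraries. Mmp8 was low in E1 and E2, Mmp14 was highest in E1, and Mmp12 and Timp1 were highest in E2.

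In E1 against CN, 6 of the 8 genes changed, 2 up and 4 down, where 17.3% of all genes tested were called (9.19% up and 8.08% down). Mmp14 and Mmp27 rose, and Mmp8, Mmp9, Mmp25 and Timp2 fell. Mmp12 and Timp1 did not pass the test. The median log2 fold change of the 8 genes was -0.45, beside -0.01 over all genes, and the median of its absolute value was 0.87, beside 0.21 over all genes. The count of changed genes was 3 instead of 6 without CN replicate 1, and also 3 without E1 replicate 2. With scaling by library totals alone the same number of the 8 changed, while the split over all genes moved to 1190 higher and 1891 lower, against 1463 higher and 1286 lower with TMM.

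In E2 against E0, 6 of the 8 genes changed as well, 3 up and 3 down, where 35.5% of all genes were called (17.0% up and 18.5% down). Mmp12, Timp1 and Timp2 rose, and Mmp8, Mmp9 and Mmp27 fell. Mmp14 and Mmp25 did not pass the test. The median log2 fold change was -0.31 over the 8 genes and -0.02 over all genes, with median absolute values of 1.77 and 0.32. The difference between the 2 responses (E2 against E0 minus E1 against CN) was called for 6 of the 8 genes, 4 higher and 2 lower, against 25.2% of all genes (11.3% higher and 14.0% lower). Those were Mmp12, Mmp14, Mmp25, Mmp27, Timp1 and Timp2, and Mmp8 and Mmp9 did not pass that test.

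**Figure D2:**
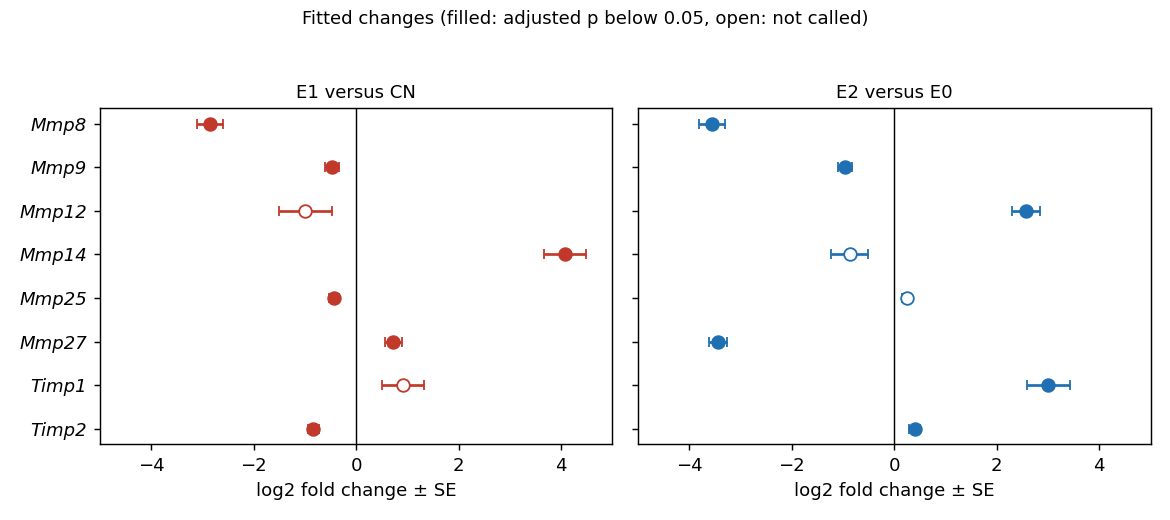
Fitted log2 fold change with its standard error for each gene in E1 against CN (left) and E2 against E0 (right), from 2 libraries per group. Filled points passed an adjusted p of 0.05 and open points did not. Mmp8 and Mmp9 fell in both comparisons, while Mmp27 lies right of zero at 0.73 in E1 and left of it at -3.45 in E2.

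Mmp8, the collagenase stored in neutrophil granules, had the largest fitted decrease of the 8 genes in both comparisons, with Mmp27 close to it in E2. It stood at 15.8 and 15.5 CPM in E1, against 113 and 112 CPM in CN, and at 7.31 and 11.4 CPM in E2, against 85.4 and 134 CPM in E0. Every stimulated library lay below every library of its own comparison group. Such separation also held for genes not called, such as Mmp12 in E1 and Mmp14 in E2. Its share over all genes was not counted. The gene was 7.23-fold lower in E1 (log2 fold change -2.85 ± 0.25, SE, edgeR adjusted p = 0.000105) and 11.7-fold lower in E2 (-3.55 ± 0.26, edgeR adjusted p = 3.81e-05). The difference between these responses was -0.70 on the log2 scale (edgeR adjusted p = 0.163) and was not called. It ran from -1.05 to -0.34 leaving out each library, and was -0.99 without E0 replicate 1. It passed with a replicate block within each experiment, described below.

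The neutrophil marker sum was also lower in E1 than in CN and in E2 than in E0. Of the 17 in the table, 1 rose and 10 fell in E1 against CN, with a median log2 fold change of -1.26, where 17.3% of all genes were called. In E2 against E0, 2 rose and 4 fell and 11 were not called, with a median of -0.61, a share near the 35.5% of all genes. Csf3r, the G-CSF receptor, averaged 30.2 CPM in E1 and 416 in CN (log2 fold change -3.79), and 105 CPM in E2 and 278 in E0 (-1.40). Retnlg, a secreted protein of mouse neutrophils, averaged 25.4 CPM in E2 and 1163 in E0 (-5.51), while Chil3, a chitinase-like protein, rose to 217 CPM in E2, against 7.78 in E0 (4.80), and Olfm4 rose there as well (0.95). Ly6g was higher in E1, at 63.2 CPM against 6.83 in CN (3.21). Their part in the Mmp8 result was not tested. Of the 12 eosinophil markers, 2 rose and 8 fell in E2 against E0, and 0 rose and 2 fell in E1 against CN. Epx (eosinophil peroxidase) averaged 11.5 CPM in E2, against 38.3 in E0 (-1.73, lost in 2 of 14 alternatives), and 61.3 CPM in E1, against 65.9 in CN, which did not pass.

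**Figure D3:**
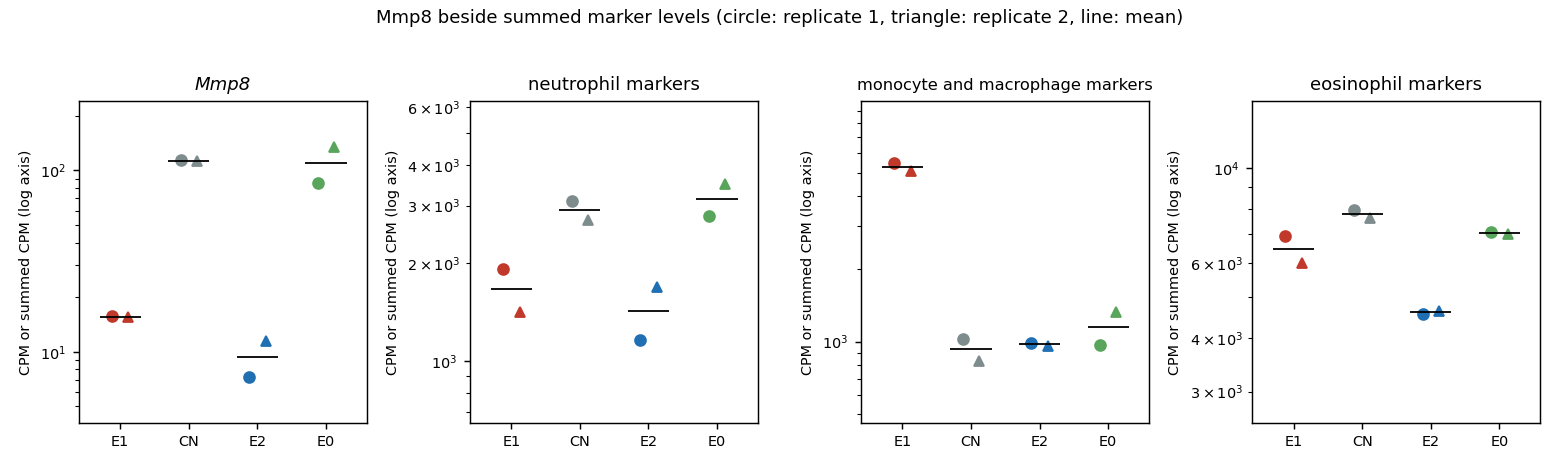
Mmp8 CPM beside the summed CPM of neutrophil, monocyte and macrophage, and eosinophil markers in each library, on log axes. Circles are replicate 1, triangles replicate 2 and lines the mean of 2 libraries. The neutrophil sum was lower in E1 and E2 than in CN and E0, and the monocyte and macrophage sum was highest in E1, at 5076 and 5486 CPM.

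Mmp9, gelatinase B, fell in both comparisons by smaller amounts. Mmp9 (ENSMUSG00000017737) lies on chromosome 2 from 164940780 to 164955850 on the plus strand (mm10). It stood at 353 and 312 CPM in E1, against 502 and 422 CPM in CN, and at 184 and 216 CPM in E2, against 355 and 422 CPM in E0. The groups did not overlap within either experiment, which was also so for some genes not called. It was 1.95-fold lower in E2 (log2 fold change -0.96 ± 0.13, edgeR adjusted p = 0.00097) and 1.39-fold lower in E1 (-0.47 ± 0.13, edgeR adjusted p = 0.0405). The E1 call was lost in 6 of 14 alternatives, namely the libraries of the comparison alone, and without CN replicate 1 (adjusted p of 0.219), either E1 library or either E2 library. The difference between the responses was -0.49 and was not called (edgeR adjusted p = 0.0897). It passed with the DESeq2 test (adjusted p of 0.0339) and with a replicate block within each experiment.

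Mmp12, the macrophage elastase, rose in E2. It stood at 14.1 and 11.8 CPM in E2, against 1.88 and 2.46 CPM in E0, and was 5.94-fold higher in E2 (log2 fold change 2.57 ± 0.27, edgeR adjusted p = 0.000248). In the first experiment it was near the limit of detection, with 6 and 4 counts in E1 and 17 and 6 counts in CN, and the change of -0.99 did not pass the test (edgeR adjusted p = 0.246). The difference between the responses was 3.56 ± 0.57 on the log2 scale (edgeR adjusted p = 0.00274), and 2.73 without CN replicate 1. Mmp12 shares 157 exonic bases with Mmp1b on the opposite strand, and the strand setting of the counting is not given in the sources used here. Of 16 monocyte and macrophage markers, 3 rose and 13 fell in E2 against E0, beside 17.0% up and 18.5% down of all genes. Those that rose were Csf1r, at 794 CPM against 417 in E0 (log2 fold change 0.93), Fcgr1 (1.46) and Cd14 (1.00). The median log2 fold change of the 16 was -2.25, and Apoe fell most (-5.42). The sums overlapped, at 962.6 and 982.3 CPM in E2, against 968.8 and 1322 CPM in E0. The part of these markers in the Mmp12 result was not tested.

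Mmp14, a membrane-anchored MMP that is activated by furin and, together with Timp2, activates the precursor of Mmp2, had the largest rise of the 8 genes in E1. Mmp14 (ENSMUSG00000000957) lies on chromosome 14 from 54431612 to 54445364 on the plus strand (mm10). It stood at 17.1 and 19.3 CPM in E1, against 1.53 and 0.613 CPM in CN. It was 16.8-fold higher (log2 fold change 4.07 ± 0.41, edgeR adjusted p = 0.000234). In relative terms, the CN libraries differed more from each other than the E1 libraries did. Without CN replicate 1 the log2 fold change was 4.90, and without CN replicate 2 it was 3.57. In the second experiment it stood at 3.39 and 4.31 CPM in E2, against 5.39 and 8.64 CPM in E0. That change of -0.87 ± 0.36 was not called (edgeR adjusted p = 0.0961), although it passed in 5 of 14 alternatives, among them the DESeq2 test (adjusted p = 0.0231). The difference between the responses was -4.94 ± 0.54 (edgeR adjusted p = 0.000397). It ran from -5.78 (without CN replicate 1) to -4.44 leaving out each library. The monocyte and macrophage marker sum was also highest in E1, at 5076 and 5486 CPM, against 829.9 and 1026 CPM in CN, with Ly6c2 alone at 3999 CPM in E1 and 99.0 in CN. Of those 16 markers, 4 rose and 4 fell in E1, where 17.3% of all genes were called, and their part in the Mmp14 result was not tested.

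Mmp25, a protease tethered to the membrane by a lipid anchor and named leukolysin in human neutrophils, changed little in relative terms. Mmp25 (ENSMUSG00000023903) lies on chromosome 17 from 23628311 to 23645277 on the minus strand (mm10). It stood at 1078 and 978 CPM in E1, against 1474 and 1298 CPM in CN, and was 1.35-fold lower in E1 (log2 fold change -0.43 ± 0.09, edgeR adjusted p = 0.0153). The gene no longer passed when CN replicate 1 (adjusted p of 0.0974) or E1 replicate 2 (0.0683) was left out, or with the libraries of the comparison alone (0.0711). In the second experiment it stood at 1379 and 1356 CPM in E2, against 1176 and 1138 CPM in E0, a change of 0.24 ± 0.09 that was not called (edgeR adjusted p = 0.0817) and passed in 3 of 14 alternatives. The responses differed by 0.67 ± 0.13 on the log2 scale (edgeR adjusted p = 0.0076).

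Mmp27, a little-studied member of the family, moved in opposite directions. It stood at 37.8 and 38.0 CPM in E1, against 19.6 and 26.1 CPM in CN, and at 5.93 and 7.91 CPM in E2, against 73.9 and 77.1 CPM in E0. Neither pair of groups overlapped, which was also so for some genes not called. It was 10.9-fold lower in E2 (log2 fold change -3.45 ± 0.18, edgeR adjusted p = 8.66e-06) and 1.66-fold higher in E1 (0.73 ± 0.16, edgeR adjusted p = 0.0163), and the E1 call did not hold without CN replicate 1 (adjusted p of 0.079) or without either E1 library (0.056 and 0.0504). The responses differed by -4.18 ± 0.24 (edgeR adjusted p = 1.26e-05), the smallest adjusted p for that difference among the 8 genes.

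Timp1, a secreted inhibitor that is weak against transmembrane MMPs such as Mmp14, rose in E2 from a very low base. Timp1 (ENSMUSG00000001131) lies on chromosome X from 20870166 to 20874735 on the plus strand (mm10). It stood at 1.42 and 1.20 CPM in E2 (121 and 93 counts), against 0.225 and 0.107 CPM in E0 (14 and 9 counts), and was 8.04-fold higher in E2 (log2 fold change 3.01 ± 0.41, edgeR adjusted p = 0.00101). In E1 it stood at 0.442 and 0.314 CPM, against 0.221 and 0.180 CPM in CN, and the change of 0.91 ± 0.41 was not called (edgeR adjusted p = 0.187). The difference between the responses was 2.10 ± 0.59 (edgeR adjusted p = 0.0329), a call lost without either CN library, either E2 library, E1 replicate 2 or E0 replicate 2 (adjusted p of 0.0517 to 0.11). Timp1 lies inside the span of Syn1 on the opposite strand and shares no exonic base with it. Syn1, a synaptic vesicle protein gene, averaged 11.0 CPM in E2 and 4.52 in E0 (log2 fold change 1.28), and 3.28 CPM in E1 and 5.44 in CN (-0.73). Without strand, intronic Syn1 reads that fall on Timp1 exons would count for Timp1, and how many do so was not tested.

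Timp2, the inhibitor that pairs with Mmp14 at the cell surface, was the more abundant TIMP in all 8 libraries. Timp2 (ENSMUSG00000017466) lies on chromosome 11 from 118301069 to 118355740 on the minus strand (mm10). It stood at 80.5 and 67.6 CPM in E1, against 144 and 120 CPM in CN, and was 1.78-fold lower in E1 (log2 fold change -0.83 ± 0.11, edgeR adjusted p = 0.00111). In the second experiment it stood at 121 and 110 CPM in E2, against 86.2 and 89.4 CPM in E0, and was 1.32-fold higher in E2 (0.40 ± 0.11, edgeR adjusted p = 0.0226). That call was lost when any 1 library of E2 or E0 was left out (adjusted p of 0.0531 to 0.13). The responses differed by 1.23 ± 0.16 (edgeR adjusted p = 0.000834).

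Mmp25 and Mmp9 together made up most of the MMP transcripts per length in every library. Mmp25 took 61.7% and 61.6% of the summed RPKM of the 6 MMPs in E1, against 58.4% and 58.0% in CN, and 81.2% and 78.1% in E2, against 56.6% and 50.4% in E0. Mmp8 took on average 2.05% in E1 and 10.4% in CN, and 1.19% in E2 and 11.0% in E0. Mmp27 took 5.47% in E1 and 2.33% in CN, and 0.966% in E2 and 8.36% in E0. The ratio of summed MMP to summed TIMP RPKM was 15.6 and 16.9 in E1, against 12.8 and 13.6 in CN, and 9.76 and 11.0 in E2, against 17.5 and 18.4 in E0. Without Mmp25, which dominates the sum, it was 5.97 and 6.50 in E1, against 5.33 and 5.70 in CN, and 1.83 and 2.41 in E2, against 7.61 and 9.14 in E0. The ratio was higher in E1 and lower in E2 than in its comparison group, with no overlap, but an exact permutation test of 2 against 2 cannot go below p = 0.333. It describes transcripts only and says nothing of protease activity.

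**Figure D4:**
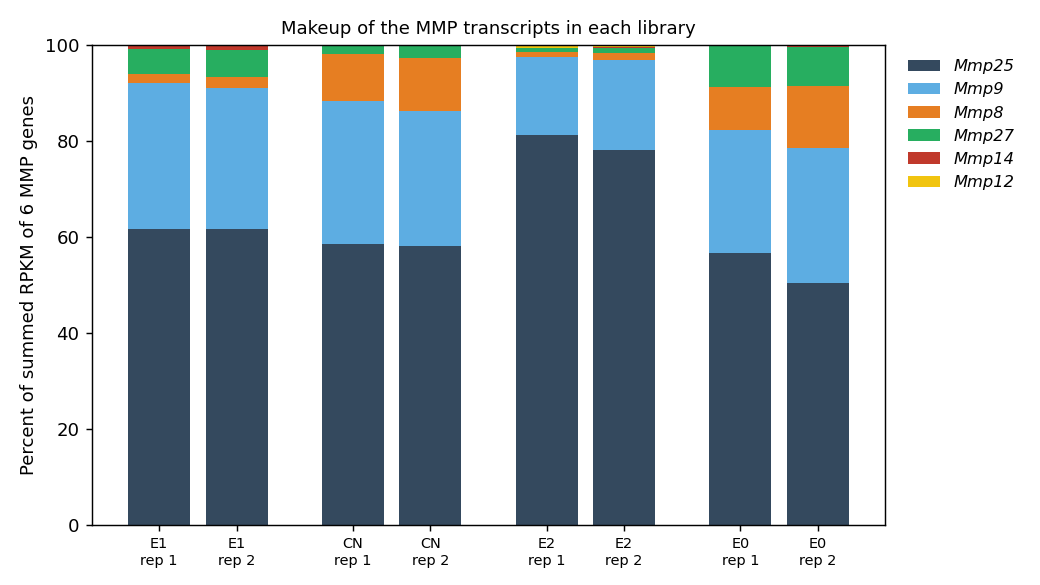
Share of each MMP gene in the summed RPKM of the 6 MMP genes, in percent, for each of the 8 libraries. Mmp25 has the largest share throughout and reaches 81.2% and 78.1% in E2. The Mmp8 and Mmp27 segments are narrow in E2.

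Mmp8, Mmp27 and Mmp12 lie in the MMP cluster of chromosome 9, and their promoters are shown because the 3 genes did not all move alike. Mmp8 and Mmp27 are adjacent, while Mmp1b, Mmp3, Mmp1a and Mmp10 lie between Mmp12 and Mmp8. The cluster holds 10 MMP genes over 427.1 kb (mm10), of which 3 were in the table, and the other 7 are not analysed here. Mmp8 (ENSMUSG00000005800, 9: 7558456 to 7568485) and Mmp27 (ENSMUSG00000070323, 9: 7571396 to 7581885) lie on the plus strand with 2.91 kb between them, and Mmp12 (ENSMUSG00000049723, 9: 7344381 to 7369499) lies on the same strand. The RefSeq promoters (GRCm38.p6, plus strand, 250 bases before to 50 after the start site) are given 5′ to 3′, with capitals for a match to the kappaB-type motif on either strand. 7 of the 8 genes, Mmp9 being the exception, matched the promoter table. Mmp12 had 2 entries there, and the one nearest the annotated gene start is used.
Mmp8, chr9:7558179-7558478: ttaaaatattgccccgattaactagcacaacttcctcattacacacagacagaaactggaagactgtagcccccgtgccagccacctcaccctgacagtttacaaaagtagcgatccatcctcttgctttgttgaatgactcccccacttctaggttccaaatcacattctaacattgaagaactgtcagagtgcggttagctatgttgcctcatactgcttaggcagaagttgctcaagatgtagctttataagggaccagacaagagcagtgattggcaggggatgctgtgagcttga
Mmp27, chr9:7571146-7571445: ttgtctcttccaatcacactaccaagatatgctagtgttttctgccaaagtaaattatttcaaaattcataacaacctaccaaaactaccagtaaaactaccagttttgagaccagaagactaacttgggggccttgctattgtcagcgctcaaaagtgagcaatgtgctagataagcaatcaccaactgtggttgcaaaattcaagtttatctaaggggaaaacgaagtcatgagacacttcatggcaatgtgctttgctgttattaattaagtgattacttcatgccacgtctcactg
Mmp12, chr9:7344147-7344446: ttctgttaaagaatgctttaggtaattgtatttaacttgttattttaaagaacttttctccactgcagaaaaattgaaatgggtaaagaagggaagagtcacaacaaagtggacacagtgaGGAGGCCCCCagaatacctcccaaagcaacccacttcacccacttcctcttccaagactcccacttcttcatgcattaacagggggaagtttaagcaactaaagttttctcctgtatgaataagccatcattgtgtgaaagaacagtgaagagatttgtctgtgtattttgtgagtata

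The motifs searched on both strands were TGANTCA (AP-1, found in 7.81% of 32851 promoters of this length), TTC and GAA with any 4 bases between (STAT6-type, 6.95%), and GGG and CC with any 5 bases between (kappaB-type, 50.8%). The AP-1 and STAT6-type motifs matched in none of the 7 windows. The kappaB-type motif matched in Mmp12 at position -129 (GGAGGCCCCC), in Mmp14 at 12 (GGGAGGGACC), and in Mmp25, Timp1 and Timp2, and it was absent from these windows of Mmp8 and Mmp27. A motif present in 50.8% of promoters does not set these genes apart, and a match is not a binding site. The transcripts of the 2 adjacent genes did not keep a fixed ratio. The RPKM ratio of Mmp27 to Mmp8 was 2.64 and 2.69 in E1, against 0.190 and 0.255 in CN, and 0.891 and 0.761 in E2, against 0.949 and 0.632 in E0. In E2 the 2 genes fell by like amounts (log2 fold changes of -3.45 and -3.55), and in E1 they moved apart (0.73 and -2.85).

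The other genes of the family and of its activation were followed from lists. Of 17 other MMP genes 6 were in the table. By the edgeR test none changed in E1 and 1 in E2, beside 17.3% and 35.5% of all genes called. In E2, Mmp28 (epilysin) was the 1 that rose, at 1.41 CPM against 0.549 in E0 (log2 fold change 1.35, edgeR adjusted p = 0.0128), a gene named here after its values were seen. Mmp24, a membrane-type MMP, averaged 12.1 CPM in E1 and 9.81 in CN (0.31, edgeR adjusted p = 0.203), and Mmp2, the gelatinase that Mmp14 activates, averaged 3.70 CPM in E1 and 3.61 in CN. Of 6 other inhibitors only Reck, a membrane-anchored MMP inhibitor, was in the table. It fell to 3.65 CPM in E1, against 7.60 in CN (log2 fold change -1.06, edgeR adjusted p = 0.00265), and was at 7.04 CPM in E2, against 5.69 in E0 (0.31, edgeR adjusted p = 0.175).

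Of 14 genes of precursor activation and the plasminogen system, 8 were in the table, and 1 rose and 3 fell in E1 while 4 rose and 0 fell in E2 (median log2 fold changes of -0.12 and 0.67), beside 17.3% and 35.5% of all genes called. Furin, the convertase that activates Mmp14 and Mmp25, fell in E1, at 820 and 744 CPM against 1197 and 1141 CPM in CN (log2 fold change -0.58, edgeR adjusted p = 0.00386). It rose in E2, at 1847 and 1624 CPM against 822 and 788 CPM in E0 (1.11, edgeR adjusted p = 0.000104). Plaur, the urokinase receptor, fell to 102 CPM in E1, against 163 in CN (-0.68, edgeR adjusted p = 0.000303), and rose to 251 CPM in E2, against 94.9 in E0 (edgeR adjusted p = 8.34e-06). Plau, urokinase itself, rose to 8.30 CPM in E2, against 2.01 in E0 (2.05, edgeR adjusted p = 9.46e-05), and was at 3.36 CPM in E1 and 3.62 in CN. The responses differed for Furin by 1.69, for Plaur by 2.08 and for Plau by 2.15 on the log2 scale (edgeR adjusted p of 8.15e-05, 4.99e-06 and 0.000477). Mmp14 and Furin changed in opposite directions in E1.

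**Figure D5:**
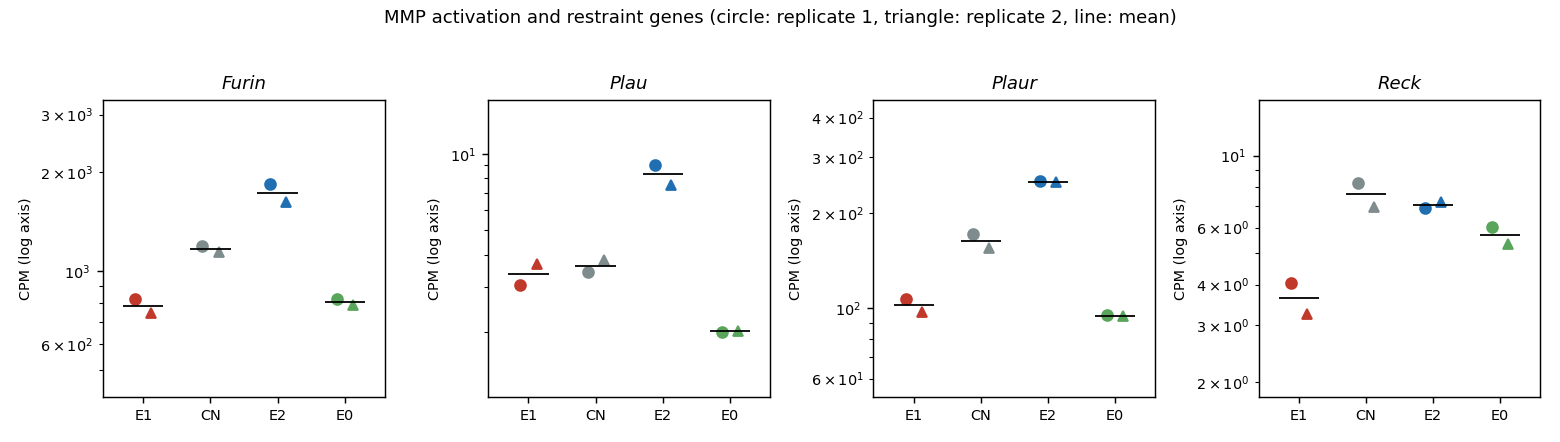
CPM of Furin, Plau, Plaur and Reck in each library on log axes, with circles for replicate 1, triangles for replicate 2 and lines for the mean of 2 libraries. Furin, Plau and Plaur were highest in E2, and Reck was lowest in E1, at 4.05 and 3.24 CPM.

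Among 18 measured AP-1, NF-kappaB and ETS factors, families known to bind MMP promoters, 9 rose and 1 fell in E1, and 8 rose and 4 fell in E2 (median log2 fold changes of 0.23 and 0.29), beside 9.19% up and 8.08% down of all genes in E1 and 17.0% up and 18.5% down in E2. Relb, a subunit of the non-canonical NF-kappaB dimer, rose to 101 CPM in E1, against 25.3 in CN (log2 fold change 2.00), and to 101 CPM in E2, against 21.6 in E0 (2.23). Nfkb2, its partner, rose to 206 CPM in E1, against 75.3 in CN, and to 303 CPM in E2, against 64.6 in E0 (2.23). Atf3, an AP-1 family member induced by stress, rose to 11.7 CPM in E1, against 3.69 in CN (1.66). Ets2 rose to 90.9 CPM in E2, against 38.0 in E0 (1.26), and also rose in E1 (0.50). Fos fell in E2, at 8.20 CPM against 20.6 in E0 (-1.33). Ets1 fell in E1, at 30.6 CPM against 48.5 in CN (-0.66), and rose in E2 (0.28). Fosl2 (-0.59) and the ETS factor Elf1 (-0.25) also fell in E2, the Elf1 call being lost without E0 replicate 1 (adjusted p of 0.0834). These calls are from edgeR, with adjusted p from 5.59e-07 to 0.0197.

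Across the 8 libraries, the genes most like each member were found by Pearson correlation of log2(CPM + 0.5) over 9018 genes with a mean of at least 5 CPM. Libraries of a group share their treatment and experiment, so these values describe the pattern only. Mmp8 was most like Trf, the iron carrier transferrin (r = 0.998), which averaged 4.95 CPM in E1 and 25.8 in CN, and 3.20 CPM in E2 and 21.9 in E0. Mmp27 was most like Cd44, the hyaluronan receptor (0.993), Mmp12 like Wwp1, a ubiquitin ligase (0.998), and Mmp14 like Slc16a10, an aromatic amino acid transporter (0.988). Mmp25 was most like Jup, plakoglobin of cell junctions (0.995), Mmp9 like Prr33 (0.978), Timp1 like Cd47 (0.991), and Timp2 like Siglecg (0.987). Among the 8 genes themselves, Mmp25 and Timp2 were the most alike (0.976), and Mmp9 and Timp1 the most opposed (-0.936).

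The order of the 4 groups was the same for Mmp8 and Mmp9, with CN highest, then E0, E1 and E2, and their CN and E0 libraries overlapped. Mmp25 and Timp2 shared the order CN, E2, E0, E1, with overlap of CN and E2. Mmp12 ran E2, E0, CN, E1, Mmp14 ran E1, E0, E2, CN, Mmp27 ran E0, E1, CN, E2, and Timp1 ran E2, E1, CN, E0 with overlap of CN and E0. These are orders of group means. The steps between CN and E1 for Mmp12 and Timp1, and between E2 and E0 for Mmp14 and Mmp25, were not called. Between experiments, cytokine and experiment cannot be told apart. In E0 against CN, 4 of the 8 genes were called, 3 higher and 1 lower, against 25.4% of all genes (13.5% higher and 11.9% lower). Mmp12 (log2 fold change 4.07), Mmp14 (2.70) and Mmp27 (1.72) were higher in E0, and Timp2 was lower (-0.59), with edgeR adjusted p from 0.00011 to 0.00637. Leaving out each library, the value of Mmp12 ran from 3.59 to 4.88 and that of Mmp14 from 2.20 to 3.51, both highest without CN replicate 1. In E2 against E1 all 8 were called, against 53.9% of all genes (27.3% higher and 26.6% lower). Mmp12, Mmp25, Timp1 and Timp2 were higher in E2 and Mmp8, Mmp9, Mmp14 and Mmp27 were lower, the Mmp8 call being lost in 4 of 14 alternatives (library totals alone, without either E1 library and without E2 replicate 1, adjusted p of 0.0685 to 0.171). With library totals alone, the split of called genes moved to 2561 higher and 1270 lower in E0 against CN (2141 and 1897 with TMM) and to 5571 and 3189 in E2 against E1 (4342 and 4233 with TMM), where the median log2 fold change of all genes was then 0.16 instead of 0.02.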

How the data were processed

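The labels give 8 mouse eosinophil libraries (TruSeq Stranded mRNA) in 4 groups of 2, used as labelled. The authors deposited a table of raw read counts per Ensembl gene. Per the submitters' processing notes, STAR, featureCounts and mm10 were used. The sources used here do not give versions, annotation or strand setting. Of 15918 rows, 1 had no gene name, held the column totals (100% of the named counts) and was left out. Symbols were found for 15730 IDs and not for 187. Lengths for RPKM are union exon lengths and positions are from GENCODE M21, which need not be the annotation used for counting.

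Counts were filtered with filterByExpr (4 genes removed), scaled by TMM and fitted with edgeR 4.0.16 (glmQLFit, glmQLFTest) in R 4.3.3 with a term for each group, leaving 4 residual degrees of freedom. The common biological coefficient of variation was 0.1474. Calls use Benjamini-Hochberg adjustment at 0.05. The script was tested on simulated data. The 14 alternatives were DESeq2 size factors, library totals alone, no filter, a replicate block, the libraries of a comparison alone, each library left out and DESeq2 1.42.0. Floors of 3 counts cover counting error only, since PCR reads without molecular identifiers are not independent molecules. The 8 genes and all lists were chosen with earlier results of these data known. From each list, up to 3 called genes each way with at least 5 CPM and the largest change could be named, or up to 2 of highest level where none was called. All such genes of the MMP-related lists are named, and some of the marker lists. For each member, 3 genes of like pattern were found and the closest is named.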

Additional observations from a re-analysis of the deposited data

How the results depend on the processing

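Of 551 values of the 8 genes under the 14 alternatives, 507 kept direction and call, 26 lost the call, 15 gained it and 3 reversed. These include fits without a library from outside a comparison of 2 groups, where the fold change is all but fixed and only the call can change. The reversals were in E0 against CN, a comparison across experiments. They were Mmp8 at 0.028 with library totals alone and from -0.40 to 0.25 leaving out each library, and Timp1 from -0.90 to 0.16. The number of the 8 genes called in E1 against CN ran from 3 to 6 leaving out each library. The number of all genes called ran from 1904 to 2484 in E1 against CN, from 3334 to 5929 in E2 against E0 (3562 without E0 replicate 1, 3567 without E2 replicate 1, 3334 without E2 replicate 2) and from 2235 to 4274 in E0 against CN. In those fits the lone library of a group is assumed to vary like the others.

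The labels do not say that replicate numbers pair the libraries, but replicates 1 and 2 differed in the same way in CN and E1 (r = 0.807 over 10047 genes) and in E0 and E2 (0.867), and less so across experiments (0.502 to 0.651). With a replicate block within each experiment, calls numbered 5521 in E1 against CN (2749 without the block), 8514 in E2 against E0 (5655), 6821 for the difference (4018) and 7476 in E0 against CN (4038). The difference of responses then passed for Mmp8 (adjusted p of 5.81e-05) and Mmp9 (0.000198), and E2 against E0 for Mmp14 (0.0159) and Mmp25 (0.000974). As given above, Ddx3y was found in replicate 1 alone of every group, so the block and donor sex cannot be told apart. The cause was not tested. With library totals alone, 6 of 32 group means moved by more than their SD, by at most 6.71%. With DESeq2 size factors, 1 did. With the longest transcript in place of union exons, 12 of 24 MMP shares moved, by at most 1.75 percentage points. Counts limit Mmp12 in E1 and CN and Timp1 in all groups, and Mmp12 was filtered out when E1 and CN were fitted alone.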

Other observations

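The relatives of the MMPs that shed surface proteins, the ADAM and ADAMTS proteases, changed in both directions. Of 9 genes of that list in the table, counting Rhbdf2, an Adam17 partner that is no protease, 3 rose and 4 fell in E1 against CN, and 4 rose and 4 fell in E2 against E0, where 17.3% and 35.5% of all genes were called. Adam8, a sheddase of leukocytes, fell in both, to 2026 CPM in E1, against 2767 in CN, and to 1822 CPM in E2, against 2491 in E0 (log2 fold change -0.45 in each, edgeR adjusted p = 0.00727 and 0.0043). Adam9 rose in both, to 42.5 CPM in E1, against 26.4 in CN (0.68), and to 83.2 CPM in E2, against 29.2 in E0 (1.51). Adam15 fell in E1 (-0.50) and rose in E2 (0.91), and the responses differed by 1.41 on the log2 scale (edgeR adjusted p = 7.57e-05). Adam17, which sheds TNF, rose to 115 CPM in E1, against 77.2 in CN (0.58), and also rose in E2 (0.21). Adamdec1 rose in E1 (1.82, lost in 3 of 14 alternatives) and fell in E2 (-1.88). Adam19 fell in E1 (-0.67) and in E2 (-0.38, lost in 4 of 14 alternatives). In E2, Adamts10 fell to 30.8 CPM, against 66.6 in E0 (-1.11), and it also fell in E1 (-0.38). Rhbdf2, which carries Adam17 to the surface, rose to 193 CPM in E2, against 138 in E0 (0.49).

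Of 17 matrix proteins that MMPs cut, 6 were in the table. Of these, 1 rose and 3 fell in E1, and 2 rose and 2 fell in E2, beside 17.3% and 35.5% of all genes called. Fn1 (fibronectin) averaged 0.526 CPM in E1 and 32.0 in CN (log2 fold change -5.92), and Vcan (versican) 0.554 CPM in E1 and 9.56 in CN (-4.12). Col5a1, a fibrillar collagen chain, fell in both, to 6.39 CPM in E1, against 28.6 in CN (-2.16), and to 13.0 CPM in E2, against 34.2 in E0. Fn1 fell in E2 (-0.97, edgeR adjusted p = 0.047), a call lost in 6 of 14 alternatives, with an adjusted p of 0.302 without E0 replicate 2. Vcan was at 5.79 CPM in E2 and 5.54 in E0. Col4a2, a basement membrane collagen chain, rose in E1 to 0.810 CPM, against 0.238 in CN (1.75), and in E2 to 0.674 CPM, against 0.194 in E0. Spp1 (osteopontin) rose in E2 to 4.92 CPM, against 2.59 in E0 (0.92, edgeR adjusted p = 0.0396). These 2 genes lay below the 5 CPM of the naming rule and are given to complete the counts. Of the 16 monocyte and macrophage markers in the table, 4 rose and 4 fell in E1, where 17.3% of all genes were called. Apoe averaged 2.04 CPM in E1 and 38.5 in CN (-4.24), and Ly6c2 3999 CPM in E1 and 99.0 in CN (5.34). The part of these markers in the matrix gene changes was not tested. All 13 surface partners and clearance receptors of MMPs were measured, with 1 higher and 1 lower in E1, and 4 higher and 5 lower in E2, beside 17.3% and 35.5% of all genes called. In E1, Cd74 rose to 297 CPM, against 52.9 in CN (2.49), and Itgav fell (-0.49). In E2, Itgam, an integrin chain that docks Mmp9, rose to 3650 CPM, against 2123 in E0 (0.78), and Lrp1, the endocytic receptor that clears MMPs and TIMPs, fell to 16.8 CPM, against 60.4 in E0 (-1.85). Rac2 (0.55) and Itgb2 (0.44) also rose there, and Itgal, at 194 CPM against 547 in E0, and Thbs1 (-0.72) fell. The Itgb2 and Thbs1 calls were lost without E2 replicate 1 (adjusted p of 0.0841 and 0.117).

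Summed levels of the other marker lists ran from 12.6 to 28.7 CPM over the 8 libraries for mast cells and basophils and 24.3 to 47.8 for lymphocytes. They ran from 159.7 to 309.7 for fibroblasts and endothelial cells and 508.7 to 569.4 for platelets. Of 10 fibroblast and endothelial markers 3 were in the table, and Pecam1 made up most of their sum (155 CPM in E1, 298 in E2). Col1a1, Col1a2, Col3a1, Dcn, Lum, Pdgfra and Cdh5 were absent. Of 6 platelet markers 3 were in the table, and Itga2b and Itgb3 made up most of their sum. Pf4, Ppbp and Gp9 were absent. In E2 against E0, where 35.5% of all genes were called, 2 of 7 mast cell and basophil markers rose, among them Cma1 at 6.62 CPM against 0.668 in E0 (3.30). Of 8 lymphocyte markers 3 rose and 1 fell, of 3 fibroblast and endothelial markers 2 rose, and of 3 platelet markers 1 rose and 1 fell. In E1 against CN, where 17.3% of all genes were called, 1 mast cell or basophil marker and 1 fibroblast or endothelial marker rose. The 4 lists had no other call there by the edgeR test.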
